A study of Danio rerio with 57 samples.

Results

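The long arm of zebrafish chromosome 4 was followed as it acquired the heterochromatin mark H3K9me3, in which lysine 9 of histone H3 carries 3 methyl groups. The arm was taken as every listed H3K9me3 region on chromosome 4 that starts at or beyond 28 Mb, up to the furthest listed position at 78.1 Mb, a length of 50.1 Mb. At 2, 2.5, 3, 3.5, 4 and 4.5 h post fertilisation (hpf) it held 458 of 7516, 1289 of 21196, 1828 of 32756, 2459 of 43657, 2983 of 51200 and 2117 of 33704 listed regions. In all 6 lists together these were 11134 of 190029 regions, and no region crossed the 28 Mb boundary. The rule used position alone, so it did not itself fix number, width, spacing or persistence. It was chosen with earlier results of these data known.

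H3K9me3 is placed by histone methyltransferases and bound by HP1 proteins, and a marked nucleosome can recruit the enzymes that mark its neighbours, so that the mark can spread from a first site. In the early fish embryo heterochromatin is built up over the cleavage and blastula divisions, around the time when the zygotic genome becomes active. The long arm of chromosome 4 is known as the most heterochromatic arm of the zebrafish genome, late in replication, rich in repeats and in 5S ribosomal and other small RNA gene copies, and with large families of zinc finger and NLR immune genes. No annotation of the lists' genome build was used here, so places on the arm are named by position and no gene or repeat is assigned to them.

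The embryos were whole embryos of genotype AB, profiled by CUT&RUN, in which an antibody guides a nuclease to release the DNA of marked nucleosomes. The time course has 17 libraries made with the H3K9me3 antibody Abcam 8898, 2 at 2 hpf and 3 at each of 2.5, 3, 3.5, 4 and 4.5 hpf, and 10 libraries made with IgG, an antibody without a chromatin target. All carried an E. coli DNA spike-in. The authors deposited 1 list of regions per time point, and the lists do not state which libraries entered them. Each list was therefore treated as 1 pooled sample. No value below therefore has a replicate error or a test over samples, read depth is unknown, and the comparisons describe these 6 lists.

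The arm stood above every other chromosome in covered share at all 6 time points, with number and width entering differently early and late in the full lists. Up to 3 hpf the arm had more regions per Mb than other chromosomes and its regions were, if anything, narrower. From 3.5 hpf its regions were also wider. Covered share on the arm, the part of its length inside a listed region, went in order of time from 0.745% through 2.50%, 4.81%, 10.1% and 15.1% to 16.5% at 4.5 hpf. The highest value on any of the 24 other chromosomes was 0.696% at 2 hpf, on chromosome 22. At 3 and 4 hpf it was 4.59% and 8.66%, both on chromosome 25. The distance from the arm to the next chromosome was thus small at 3 hpf and large at 4 hpf.

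Region density on the arm was 9.14 per Mb in the first list, then 25.7, 36.5, 49.1 and 59.5, and 42.3 in the last. Against the pooled 24 other chromosomes this was a ratio of 1.73, 1.73, 1.57, 1.59, 1.64 and 1.79 in order of time. The arm had the most regions per Mb of all 25 units in every list, and over the full lists this ratio varied little. It did not stay level in subsets of regions picked by name, deposited p-value or score. With those named primary it was 1.27, 1.13 and 1.15 in the first 3 lists and 1.59, 1.65 and 1.58 in the last 3. With deposited p-values under 0.05, held by 5.66% to 13.7% of arm regions by list, it was 1.34, 1.12 and 1.14, then 1.75, 1.70 and 1.69. With lists of equal size it was 1.73, 1.28 and 1.17, then 1.69, 1.74 and 1.64. That size, 7233 regions, is the whole 2 hpf list on the 25 chromosomes, so the 1.73 at 2 hpf is the unfiltered value. Mean width followed another course. Its ratio to other chromosomes was 0.931, 0.886 and 0.929 at 2, 2.5 and 3 hpf and 1.24, 1.43 and 1.49 at 3.5, 4 and 4.5 hpf. The ratio of covered share, which combines number and width, was 1.61, 1.53 and 1.46 in the first 3 lists and 1.96, 2.34 and 2.68 in the last 3. In the 4.5 hpf list, chromosomes 1 and 10 to 14 stood apart, with median deposited signals of 562.5 to 795.5 against 102.4 to 145 on the other 18. Chromosome 14 held 453 regions there against 1873 at 4 hpf, with a gap of 19561 kb between 2 of them. At 4.5 hpf 32 windows of 1 Mb were empty on the 24 chromosomes and 0 on the 18. All values at 4.5 hpf on 24 or 25 chromosomes include these 6. The arm was therefore also compared with the other 18. There the ratios of covered share, density and mean width at 4.5 hpf were 2.76, 1.73 and 1.60. Region density and covered share stayed above those of other chromosomes at every time point under all 10 alternative settings tried.

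**Figure D1:**
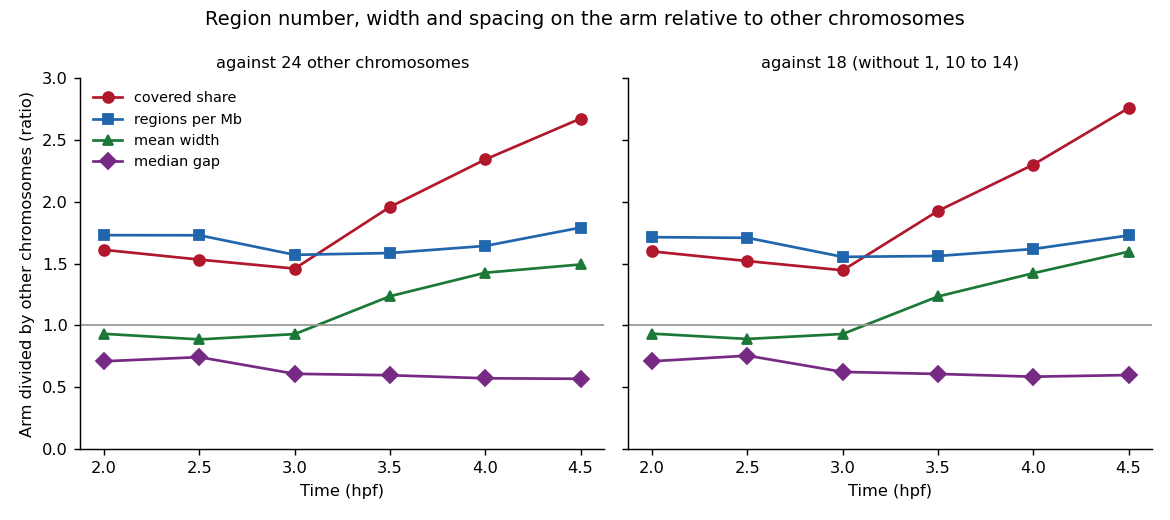
Ratio of the arm to the other chromosomes (y axis) by time in hpf (x axis) for covered share, regions per Mb, mean region width and median gap between regions, against 24 chromosomes (left) and against the 18 left without chromosomes 1 and 10 to 14 (right). The density ratio stays between 1.57 and 1.79 in the left panel, while the mean width ratio crosses 1 between 3 and 3.5 hpf and the covered share ratio goes from 1.46 to 2.34 between 3 and 4 hpf.

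Width on the arm moved from the bottom of the chromosome order to the top between 3 and 3.5 hpf. Median region width in the first 3 lists was 603.5, 608 and 755.5 bp, against 632, 664 and 834.5 bp on the 24 other chromosomes. At 2.5 and 3 hpf the arm had the lowest median width of all 25 units. In the last 3 lists its medians were 1173, 1412 and 2757 bp, the highest of all 25, against 970, 1029 and 1674 bp elsewhere. The highest single chromosome at 4 hpf was chromosome 25, with 1156 bp. The early deficit in width depended on the regions counted. With regions whose deposited name begins with primary, the ratio of median widths was 1.10 at 2.5 hpf and 1.06 at 3 hpf. The later excess did not turn under any of the 10 settings, with ratios of 1.27 to 1.45 at 4 hpf.

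The shift was seen at both ends of the range of widths. Regions of at least 5 kb on the arm numbered 0, 16, 65, 241, 431 and 552 in order of time. They were 3.56% of arm regions at 3 hpf and 14.4% at 4 hpf, against 3.78% and 6.67% elsewhere. Regions of at least 10 kb numbered 6, 23, 79 and 155 on the arm at 3, 3.5, 4 and 4.5 hpf. They were 0.328%, 0.935%, 2.65% and 7.32% of arm regions, against 0.415%, 0.655%, 0.978% and 2.34% on the 24 other chromosomes. Of these lists, the arm had the highest such share of all 25 units only at 4 hpf. At 4 hpf regions of at least 10 kb held 19.3% of the covered length of the arm and 8.99% of that of the other chromosomes. Narrow regions under 500 bp went the other way, from 29.8% of arm regions at 2.5 hpf to 10.3% at 4 hpf, and from 22.5% to 12.1% elsewhere.

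**Figure D2:**
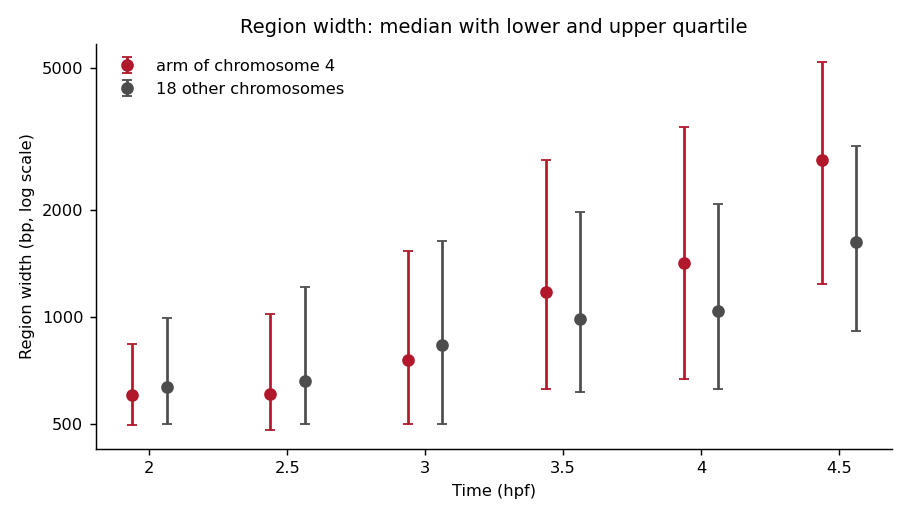
Median region width in bp (points, log scale) with the lower and upper quartile of regions (bars) by time in hpf, on the arm and on the 18 other chromosomes without 1 and 10 to 14. The bars show the spread among regions of a list, not among embryos. The arm median lies below the others up to 3 hpf and above them from 3.5 hpf, at 1412 bp against 1036 bp at 4 hpf.

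The signal the authors deposited with each region showed the same turn, but not at equal width. The sources used here do not give its unit, and it is compared within a list only. In the first 3 lists the median signal of arm regions was 42.3, 49.03 and 95.9, against 50.1, 68.5 and 112.8 on the 24 other chromosomes, and at 3 hpf the arm was the lowest of all 25 units. At 4 hpf it was the highest of all 25, with 130.6 against 104.7. Among regions of like width the arm remained below. For regions of at least 500 and under 1000 bp the ratio of median signals was 0.893 at 3 hpf and 0.902 at 4 hpf. For those of at least 2000 and under 5000 bp it was 0.800 at 3 hpf and 0.939 at 4 hpf, and for those from 5 kb to under 10 kb it was 0.916 and 0.893. Regions on the arm thus became wider than elsewhere without carrying more signal at a given width in these classes. Primary names, which go with low deposited p-values, were least frequent on the arm of all 25 units at 2, 2.5 and 3 hpf. They made up 23.6%, 11.9% and 15.7% of arm regions there. Chromosome 4 before 28 Mb is not among these units and had 18.3%, 12.7% and 19.6%, so at 2 hpf its share was lower still. At 3.5 and 4 hpf their share was 29.2% and 31.4%, against 29.04% and 31.2% elsewhere.

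Along the arm, covered share in windows of 1 Mb differed widely at first and became more even relative to its mean. The 50 whole windows had a lowest, median and highest value of 0.05%, 0.531% and 5.57% in the first list. At 3 hpf these were 0.836%, 3.90% and 21.4%, and at 4 hpf 5.37%, 14.5% and 34.0%. The SD between windows divided by their mean was 1.09 at the start, 0.755 by 3 hpf, 0.3798 by 4 hpf and 0.303 in the last list. In the 1258 windows of the 24 other chromosomes it was 1.31, 0.995, 0.822 and 0.859. The 5 most covered arm windows held 31.6% of the covered length at 2 hpf and 18.02% at 4 hpf. No arm window was empty in any list. Elsewhere 80 of the 1258 windows were empty in the first list. That share is small and would amount to few windows among 50, so this difference carries little weight.

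Windows covered over at least 10% numbered 0 of 50 on the arm at 2 hpf (background over all 1336 windows of the 25 chromosomes 0.0%) and 1 of 50 at 2.5 hpf (background 0.973%). At 3 hpf they numbered 3 of 50 against a background of 4.72%. At 3.5 hpf they numbered 20 of 50 against a background of 13.2%. At 4 hpf they were 40 of 50 (background 20.8%) and at 4.5 hpf 46 of 50 (background 19.6%). At 3 hpf the share on the arm was therefore near the background, although 43 of 50 arm windows already lay above the median window of the other chromosomes. At that time 7 of 50 lay above the 90th percentile of those chromosomes, 7.79%. At 4 hpf every arm window lay above their median window, with 31 of 50 above their 90th percentile of 13.4%. Windows covered over at least 15% at 4 hpf numbered 22 of 50 on the arm, and 94 of 1258, or 7.47%, on the 24 other chromosomes.

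**Figure D3:**
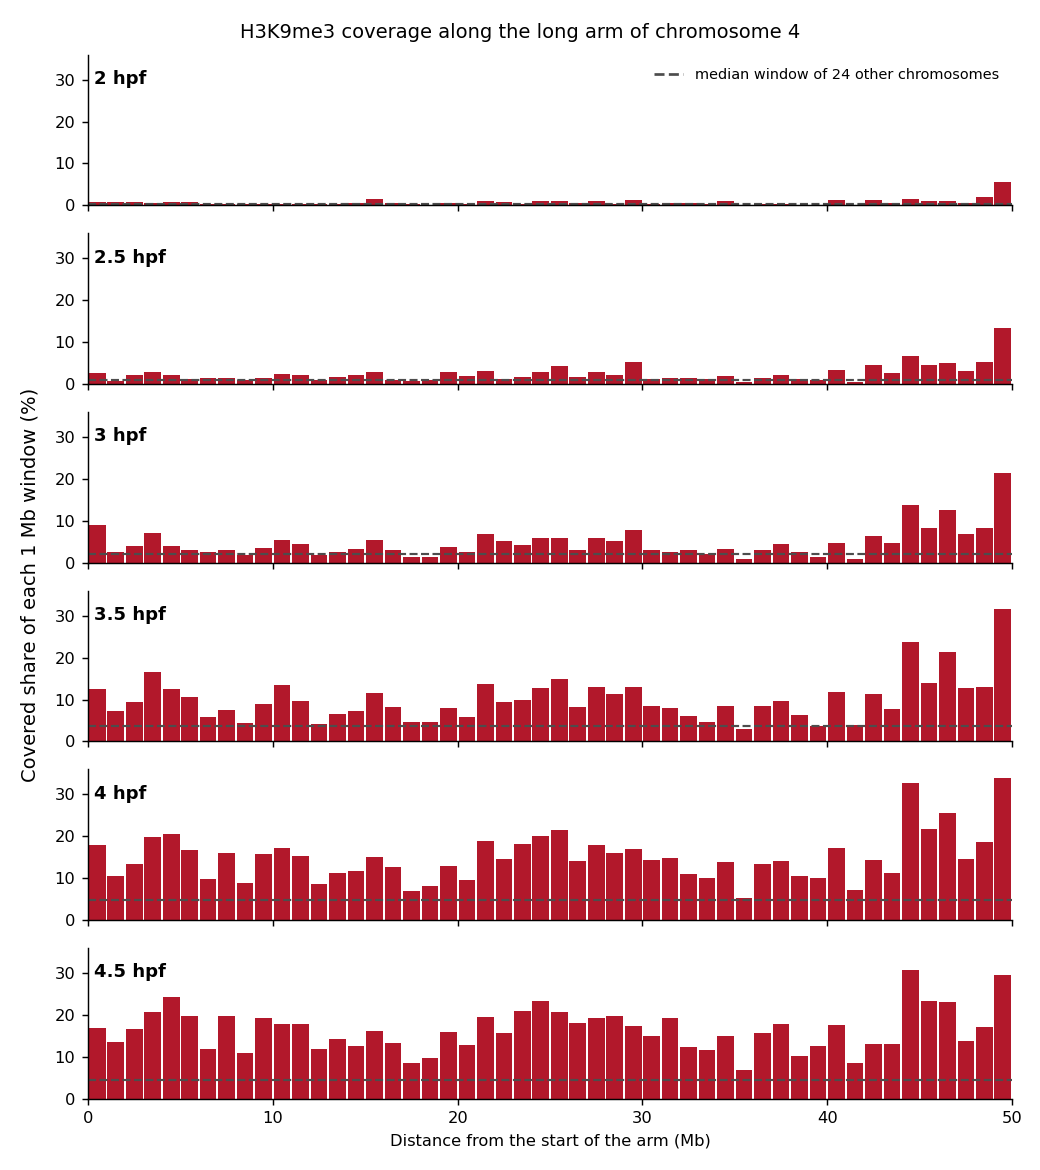
Covered share in percent (y axis) of each whole 1 Mb window along the arm, by distance in Mb from the start of the arm (x axis), one panel per time point; the dashed line is the median window of the 24 other chromosomes. The outermost windows hold the highest early value, 5.57%, and by 4 hpf all 50 windows stand above the dashed line, between 5.37% and 34.0%.

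The outermost 10 Mb of the arm had the highest covered share in every list, and all 5 blocks held regions from the first list on. In 5 blocks of 10 Mb, from the inner boundary outward, covered share at 2 hpf was 0.565%, 0.480%, 0.774%, 0.385% and 1.504%. At 3 hpf it was 4.04%, 3.26%, 5.25%, 2.62% and 8.77%, and at 4 hpf 14.9%, 11.99%, 16.8%, 11.7% and 19.7%. The order of the blocks was the same in these 3 lists, while at 2.5 hpf the block from 38 to 48 Mb, at 1.79%, lay above that from 28 to 38 Mb, at 1.70%. At 4.5 hpf the outermost block was at 19.0%, lower than at 4 hpf, and the other 4 were higher, at 17.4%, 13.8%, 18.8% and 13.7%. The least and the most covered block differed in spacing as well. In the block from 58 to 68 Mb the median gap between regions was 110593 bp in the first list and 8480 bp by 4 hpf, and in the outermost block 35798 bp and 5383 bp.

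The most covered window at 4 hpf was 77000001 to 78000000, at the chromosome end, with 5.57%, 13.4%, 21.4%, 31.6%, 34.0% and 29.7% in order of time. It was high from the first list and had the smallest fold from 3 to 4 hpf of the arm, 1.59. The window 72000001 to 73000000 started lower, at 1.49% at 2 hpf, and had 13.7% by 3 hpf, 32.8% by 4 hpf and 30.7% in the last list, with 122 regions at 4 hpf. The windows from 73000001 and from 74000001 reached 21.7% and 25.5% at 4 hpf. Outside the outermost block, the windows from 53000001, 32000001, 52000001 and 31000001 reached 21.4%, 20.5%, 20.04% and 19.9%. Of these, the one from 32000001 had only 3.98% at 3 hpf and continued to 24.4% at 4.5 hpf.

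The least covered windows at 4 hpf were those from 63000001, 45000001, 69000001, 46000001 and 40000001, with 5.37%, 6.86%, 7.13%, 8.21% and 8.61%. Even the lowest of them lay above the median window of the other chromosomes, 4.77%. The window from 63000001 held 1 region covering 0.05% at 2 hpf and 34 regions at 4 hpf. The windows with the largest fold from 3 to 4 hpf began low. They were those from 67000001 (1.33% to 9.99%, 7.50-fold), 69000001 (0.991% to 7.13%, 7.19-fold), 63000001 (0.836% to 5.37%, 6.42-fold), 59000001 (2.51% to 14.8%, 5.89-fold) and 33000001 (2.94% to 16.7%, 5.69-fold).

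Windows of like coverage at 3 hpf diverged by 4 hpf according to whether they lay on the arm. Of windows covered over 2% to 4% at 3 hpf, the 19 on the arm had a median of 2.94% at 3 hpf and 12.8% at 4 hpf, with a range of 9.60% to 20.5%. The 301 on the 24 other chromosomes had 2.76% and 5.90%, with a range of 2.88% to 11.7%. Of windows under 2% at 3 hpf, the 7 on the arm lay between 5.37% and 9.99% at 4 hpf and the 608 elsewhere between 0.286% and 6.95%. Among windows of 4% to 8% the medians at 4 hpf were 16.6% for 18 arm windows and 9.83% for 226 others. The ranges overlapped in each class, and the arm medians were the higher ones. Read from the other side, arm windows that ended at 10% to 15% at 4 hpf had a median of 3.16% at 3 hpf, against 6.57% for windows elsewhere that ended in the same class. From 2 to 3 hpf the same classes showed no single direction. The median fold was 7.37 on the arm against 7.08 elsewhere under 2%, 6.03 against 8.83 at 2% to 4%, 6.70 against 8.22 at 4% to 8%, and 8.44 against 7.41 at 8% to 30%.

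Taking all windows, covered share was at least 3-fold higher at 4 than at 3 hpf in 36 of 50 arm windows, against a background of 18.8% of all windows. Step by step, the count of arm windows with at least a 2-fold increase was 44 of 50 from 2 to 2.5 hpf (background 84.7%), 21 of 50 from 2.5 to 3 hpf (background 61.0%), 39 of 50 from 3 to 3.5 hpf (background 26.9%), 5 of 50 from 3.5 to 4 hpf (background 2.02%) and 0 of 50 from 4 to 4.5 hpf (background 0.15%). The arm was near the background in the first step, below it in the second and above it in the next 2. Covered share was lower than in the list before in 0 of 50 arm windows in each of the first 4 steps, where backgrounds were 2.71%, 1.06%, 1.5% and 1.87%. From 4 to 4.5 hpf covered share was lower in 9 of 50 arm windows, where 62.6% of all windows were lower. Of those 9 windows, 6 lay in the outermost block.

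**Figure D4:**
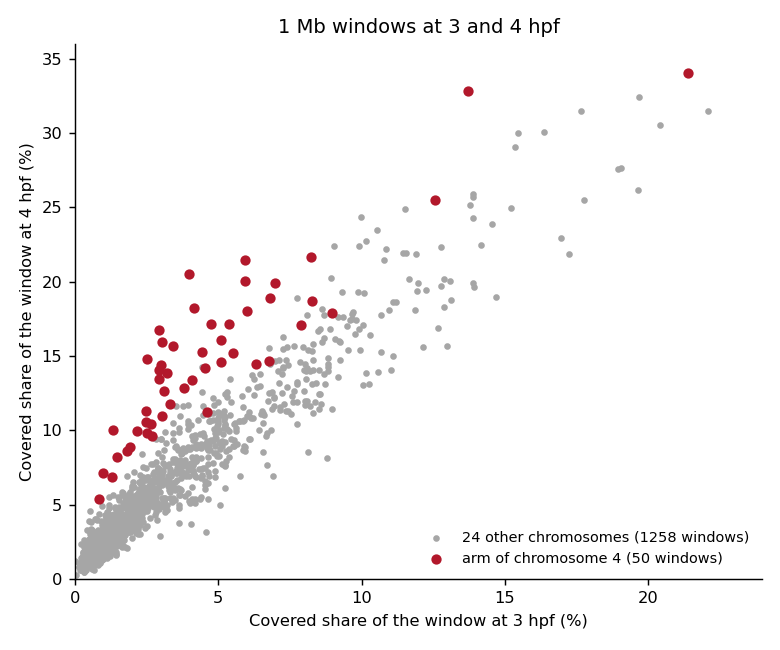
Covered share of 1 Mb windows at 4 hpf (y axis, percent) against that at 3 hpf (x axis, percent), for 50 arm windows and 1258 windows of the 24 other chromosomes. At equal coverage at 3 hpf the arm windows lie along the upper edge of the others, for example at medians of 12.8% and 5.90% at 4 hpf for windows of 2% to 4% at 3 hpf.

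The order of the arm windows was largely kept from list to list. Spearman's rho over the 50 windows was 0.778 between 2 and 2.5 hpf, 0.916 between 2.5 and 3 hpf, 0.933 between 3 and 3.5 hpf and 0.942 between 3.5 and 4 hpf. Between 2 and 4 hpf it was 0.679, and over the 1258 other windows it was 0.786. These are descriptions across neighbouring windows of pooled lists, which share whatever affects coverage at a place in every library.

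Regions on the arm lay closer together than elsewhere in each list. The median gap between neighbouring regions was 49907, 18238, 11111, 8205, 6925 and 10835 bp in order of time. On the 24 other chromosomes it was 70387, 24566, 18295, 13773, 12125 and 19112 bp. From 3 hpf onward the arm had the lowest median gap of all 25 units, and at 2 hpf 2 of the other 24 were lower, chromosome 3 having the lowest at 39025 bp. Gaps of 5 kb or less made up 14.7%, 32.7% and 40.6% of arm gaps in the lists of 2, 3 and 4 hpf, against 12.3%, 23.8% and 28.8% elsewhere. With regions named primary alone, the ratio of median gaps was 1.24 at 2 hpf and 1.03 at 2.5 hpf; primary regions of those lists were not closer together on the arm.

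Some long stretches of the arm held few or no listed regions in any list. The longest stretch without a region at 4 hpf ran from 45628882 to 46451565, 823 kb, and at most 0.0686% of it was covered in any list. A 433 kb stretch from 66021552 to 66454731 had no region at 2, 3, 3.5 or 4 hpf and had covered shares of 0.0840% and 0.511% in the lists of 2.5 and 4.5 hpf. A 264 kb stretch from 48198278 to 48462216 was covered over 0.0239% at 3.5 hpf and had no region in the other 5 lists. The first of these lies across the windows from 45000001 and 46000001, 2 of the 5 least covered.

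Fusion was measured by gaps. A gap between neighbouring regions of a list was called closed when 1 region of the next list overlapped both. Of gaps of 5 kb or less on the arm, 19 of 67 closed from 2 to 2.5 hpf (28.4%, background over all 25 chromosomes 29.7%) and 58 of 336 from 2.5 to 3 hpf (17.3%, background 25.2%). In the later steps 178 of 547 closed from 3 to 3.5 hpf (32.5%, background 21.9%), 209 of 881 from 3.5 to 4 hpf (23.7%, background 13.2%) and 194 of 1127 from 4 to 4.5 hpf (17.2%, background 11.8%). Gap closure on the arm was thus at or below the background before 3 hpf and above it afterwards. On the 18 other chromosomes the value from 4 to 4.5 hpf was 6.79%.

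Against the 18 other chromosomes, the later difference was present in each class of gap size up to 5 kb. Against the 24 it was absent for gaps of 2 to 5 kb from 4 to 4.5 hpf, with 5.36% of 541 on the arm and 5.56% of 6830 elsewhere. From 3 to 3.5 hpf, gaps of up to 1 kb closed in 67.0% of 106 cases on the arm and 55.0% of 1097 on the 18 other chromosomes, gaps of 1 to 2 kb in 36.4% and 24.7%, and gaps of 2 to 5 kb in 17.2% and 5.13%. From 3.5 to 4 hpf the shares were 59.5% and 41.9%, 28.4% and 13.8%, and 8.41% and 2.59%. From 2.5 to 3 hpf the order was reversed for gaps of 1 to 2 kb, with 14.7% of 102 on the arm and 27.1% of 986 elsewhere. Gaps of 5 to 10 kb closed from 3.5 to 4 hpf in 3 of 365 cases on the arm, 0.822%, and in 9 of 5519 on the 24 other chromosomes, 0.163%. With regions of at least 1 kb alone, the ratio of closed shares to those of the 24 other chromosomes was 1.44, 1.63 and 1.32 in the last 3 steps. Between regions named primary few gaps closed anywhere, 3.70% of 27 on the arm against 3.67% in the step from 3 hpf, 3.16% of 95 against 2.21% in the step from 3.5 hpf, and 0% of 131 against 1.12% in the last.

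**Figure D5:**
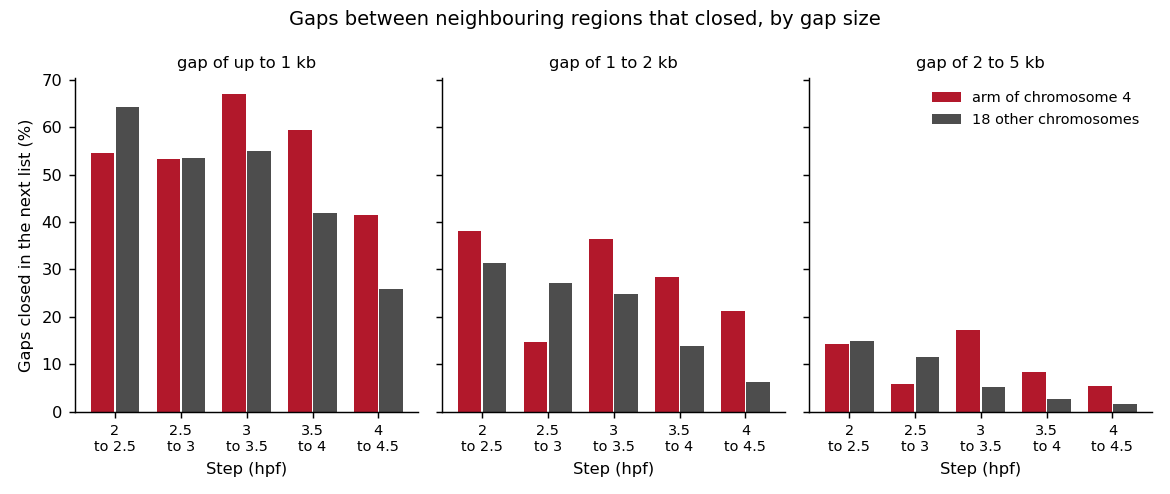
Share of gaps between neighbouring regions that closed in the next list (y axis, percent) for each step in hpf (x axis), by gap size, on the arm and on the 18 other chromosomes without 1 and 10 to 14. Bars are shares of gaps in 1 pooled list each and carry no replicate error. From 3 hpf onward the arm bar is the taller one in every panel, with 32.5% of all gaps of 5 kb or less closed from 3 to 3.5 hpf.

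Regions joined in this way held a larger part of the covered arm in the last 3 steps than in the first 2. Later regions that overlapped at least 2 earlier ones numbered 17, 53, 149, 182 and 177 over the 5 steps. They held 8.76%, 10.4%, 21.1%, 19.7% and 19.2% of the covered length of the later list, against 7.10%, 13.4%, 11.2%, 9.17% and 7.08% on the 18 other chromosomes. Most joined 2 earlier regions, with a mean of 2.22 from 3 to 3.5 hpf, and at most 7 entered a single region, from 3.5 to 4 hpf. Of earlier arm regions found again, 0%, 1.89%, 1.60%, 1.25% and 1.81% were overlapped by more than 1 later region, against 1.04%, 1.23%, 1.75%, 1.12% and 1.32% on the 24 other chromosomes. Growth without fusion went alongside. Where 1 later region overlapped 1 earlier region, the later one was longer by a median of 376, 688 and 461 bp on the arm in the steps from 2.5, 3 and 3.5 hpf, against 451, 340 and 134 bp on the 18 other chromosomes.

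Newly covered length lay mostly in separate new regions before 3 hpf and mostly in extended ones afterwards. The arm gained 1.05 Mb from 2 to 2.5 hpf, 24.9% of it by regions that overlapped one already listed. From 2.5 to 3 hpf it gained 1.62 Mb with 43.4% in such extension, from 3 to 3.5 hpf 3.13 Mb with 57.0%, from 3.5 to 4 hpf 3.03 Mb with 65.8% and from 4 to 4.5 hpf 2.14 Mb with 76.9%. Extension shares on the 24 other chromosomes were 27.9%, 45.9%, 50.3%, 56.3% and 72.7%. The arm was thus lower in the first 2 steps and higher in the last 3. Losses are not taken off these gains. The arm lost 0.170, 0.462, 0.473, 0.551 and 1.41 Mb over the 5 steps. These were 45.5%, 36.9%, 19.6%, 10.9% and 18.6% of its earlier covered length, against 36.5%, 26.4%, 21.7%, 13.5% and 28.1% on the 24 other chromosomes. New arm regions appeared near older ones: of 1179 new regions at 3.5 hpf, 40.5% lay within 5 kb of a region at 3 hpf, against 30.7% elsewhere, where older regions were also sparser.

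Persistence on the arm began below that of other chromosomes and ended above it. Persistence here means that the following list covers 1 bp or more of a region. On the arm 236 of 458 regions persisted from 2 to 2.5 hpf, 51.5%, where the background over all 25 chromosomes was 59.8%. From 2.5 to 3 hpf it was 739 of 1289, 57.3% (background 67.8%). From 3 to 3.5 hpf it was 1381 of 1828, 75.5% (background 75.3%), and from 3.5 to 4 hpf 2087 of 2459, 84.9% (background 83.5%). The last step, 4 to 4.5 hpf, kept 2042 of 2983, 68.5% (background 59.5%). The 2 middle values are near the background. An overlap of 1 bp is more easily met where the next list covers more. The 4.5 hpf list covered 16.5% of the arm and 6.18% of the 24 other chromosomes. The part of this coverage in the higher persistence of the last step was not tested.

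Early persistence was lower on the arm in most width classes. From 2 to 2.5 hpf the exception was the class from 1000 to under 2000 bp, with 87.7% of 65 arm regions against 84.7% elsewhere. At 2000 bp and over it was 84.6% of 26 against 96.3%. From 2.5 to 3 hpf, 35.9% of 384 arm regions under 500 bp persisted against 44.5% elsewhere, and 54.8% of 577 regions from 500 to under 1000 bp against 64.7%. Of 203 regions from 1000 to under 2000 bp 82.3% persisted, against 89.6%. For regions of 2000 bp and over it was 94.4% of 125 against 95.3%. From 4 to 4.5 hpf the arm was higher in all 4 width classes when set against the 24 other chromosomes, with 49.4% against 41.4% from 500 to under 1000 bp and 90.1% against 89.6% at 2000 bp and over. On the 18 other chromosomes the widest class was at 92.006%, above the arm. By block, persistence from 2 to 2.5 hpf was 43.8%, 44.1%, 60.4%, 38.9% and 56.9% from the inner boundary outward, and from 3.5 to 4 hpf it was even, between 82.5% and 88.7%.

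The higher persistence of the arm from 4 to 4.5 hpf turned when only regions named primary were used in both lists. At 4 hpf all 79 arm regions of at least 10 kb had secondary names, as had all 449 on the 24 other chromosomes. Such regions were thus left out on both sides. Of arm regions named primary at 4 hpf, 20.8% overlapped a primary region at 4.5 hpf, against 25.2% elsewhere. When any region counted at 4.5 hpf, 83.8% of the 936 primary regions on the arm persisted, against 81.6% on the 24 and 84.2% on the 18 other chromosomes. Primary regions on the arm from 3.5 to 4 hpf likewise persisted under any name in 97.2% of 718 cases, against 97.4% elsewhere, and as primary in 55.6% against 74.3%. Primary places of 3.5 hpf on the arm were thus found again about as often as elsewhere, but less often under a primary name.

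Of the 458 arm regions of 2 hpf, 153 (33.4%) recurred in all 5 lists that follow, against 43.0% on the 24 other chromosomes. For those of 3.5 hpf the order was the opposite, with 67.3% of 2459 on the arm and 57.8% elsewhere. The part of the higher coverage of the arm in the later lists was not tested. The 6 lists together formed 3595 separate places on the arm. By the list in which they first appeared, they numbered 406, 747, 622, 720, 761 and 339 in order of time. Places first seen at 4 or 4.5 hpf were 21.2% and 9.43% of the total, against 18.2% and 6.57% elsewhere. Places that began at 3 hpf recurred in all 3 remaining lists in 45.5% of cases, against 37.2% elsewhere. A total of 198 places were marked at all 6 time points, 5.51% on the arm and 5.27% elsewhere.

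Single places show the range of histories. The widest arm region at 2 hpf, from 77559949 to 77564798, was 4850 bp long and carried the highest deposited signal of that whole list, 6034.4, under a secondary name with a deposited p-value of 0.999. It was 99.2% covered at 3 hpf and had no region at 2.5, 3.5, 4 or 4.5 hpf. The next widest, from 77361133 to 77365898, was 4766 bp long and was overlaid in the 5 later lists by regions of 7953, 11161, 21942, 23945 and 21961 bp. It lies within 1 of the 5 widest regions at 4 hpf.

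The other 3 lay under later regions of less than 10 kb, which at 4 hpf were wider than at 2 hpf. The one from 70604694 to 70608963 went from 4270 bp to 5922 bp by 4 hpf and 6174 bp in the last list. The one from 62274857 to 62279162 went from 4306 bp to 9282 bp at 4 hpf. The region from 77081441 to 77085378 was 49.2% covered at 3 hpf and covered over its whole length from 3.5 hpf. It was 3938 bp long at 2 hpf, and the regions over it were narrower at 2.5 and 3 hpf, 3437 and 1936 bp, before reaching 8233 bp at 4 hpf. All 3 were covered at least in part in every list.

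The 5 widest arm regions at 4 hpf overlapped from 0 to 6 separate regions in each earlier list. The widest, from 28726414 to 28757875, was 31.5 kb long at 4 hpf and its covered share in the 4 earlier lists was 1.54%, 2.73%, 32.5% and 62.0%. It held 1, 2, 4 and 6 separate regions in those lists, and merged with what it touched it formed a stretch of 45664 bp at 4 hpf. At 4.5 hpf a single region of 77691 bp covered 99.9% of it. Its deposited signal at 4 hpf, 6427.6, ranked 5 among 51200 regions. The region from 37115567 to 37136408 had no region at 2 hpf, and 2.61%, 20.3% and 30.4% of its 20.8 kb were covered at 2.5, 3 and 3.5 hpf. At 52083180 to 52106498, 23.3 kb, the shares were 8.73%, 17.6%, 23.8% and 77.6% from 2 to 3.5 hpf. At 77017020 to 77042920, 25.9 kb, they were 27.1%, 49.6%, 42.7% and 95.7%. At 77358552 to 77382496, 23.9 kb, they were 23.1%, 45.9%, 72.1% and 91.6%, the last from a single region of 21942 bp. The 2 places near the chromosome end were thus ahead of the 3 further in at each early time point. All 5 had secondary names and deposited p-values of 0.979 to 0.987, and they were picked for width at 4 hpf, which favours lower coverage in other lists.

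Fusion was also followed over the longer interval from 2.5 to 4 hpf. Merged arm regions of 4 hpf that took in 2 to 4 regions of the 2.5 hpf list numbered 144, or 5.19%, against 3.56% elsewhere. None took in more than 4, and on the 24 other chromosomes 17 did, or 0.0387%, a share too small to tell apart from 0 among the arm regions. The 4 that took in 4 lay at 48899220 to 48908586, 49780810 to 49791188, 52083180 to 52106498 and 53383997 to 53408349. The last was 24.4 kb long and went from 27.7% covered at 2.5 hpf to 95.4% at 3.5 hpf. The first, 9367 bp long, went from 4 regions at 2.5 hpf to 2 at 3 hpf and 1 at 3.5 hpf. Another, at 28685298 to 28693292, took in 3 regions and was covered over 91.2% at 3.5 hpf, yet it had no region at 4.5 hpf. Of all arm regions at 4 hpf, counted after touching ones were merged, 72.5% overlapped no region of 2.5 hpf, close to the 72.1% elsewhere.

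Chromosome 4 before 28 Mb did not share the covered share, region density or late width of the arm. At 3 and 4 hpf 1.42% and 3.18% of it were covered, with 18.1 regions per Mb and a median width of 1061 bp at 4 hpf. The arm exceeded it 3.39-fold in covered share at 3 hpf and 4.73-fold at 4 hpf. Gap closure was closer to the arm in 1 step. Of gaps of 5 kb or less before 28 Mb, 16 of 54 closed from 3 to 3.5 hpf, 29.6% against 32.5% on the arm (background 21.9%). From 3.5 to 4 hpf it was 14 of 97, 14.4% against 23.7% (background 13.2%).

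The make-up of the lists touches the last steps. On the arm, 61, 154, 189 and 206 pairs of regions touched end to end at 2.5, 3, 3.5 and 4 hpf, and none did at 2 or 4.5 hpf. Relative to the number of regions these pairs were 4.73%, 8.42%, 7.69% and 6.91%, against 5.74%, 7.09%, 5.10% and 4.41% on the 24 other chromosomes. On the 18 other chromosomes there were likewise no such pairs at 4.5 hpf, and 1599 at 4 hpf, or 4.52%. Touching regions count separately in region number and width and together in covered length, gaps and fusion. With touching regions merged, the arm held 2777 regions at 4 hpf and 2117 at 4.5 hpf. Beyond this count, the part of such pairs in the lower region number and larger width at 4.5 hpf was not tested. The lists of 3 and 4 hpf both contain such pairs, in the unlike shares given above. Merging regions within 1 kb joins touching ones too. The density ratio to the 24 other chromosomes was then 1.53 at 3 hpf and 1.56 at 4 hpf. The ratio of median widths was 0.926 and 1.45. The part of touching pairs alone in the change from 3 to 4 hpf was not tested.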

How the data were processed

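H3K9me3 CUT&RUN of whole zebrafish embryos was analysed from the 6 region lists the authors deposited for the time course, a single list for each stage. The submitters' processing notes name HOMER, STAR, bedtools, Picard, Trim Galore and SAMtools, with no role. Not given in the sources used here are the genome build, the treatment of reads that map to several places, the libraries behind each list and the meaning of the primary and secondary names. As deposited, each region carries a score that reaches at most 1000, a signal of unknown unit and a p-value. What the p-value tests is not stated in the lists. It was under 0.05 for 5.66% to 13.7% of arm regions by list. On the 24 other chromosomes this held for 8.54% to 13.3%. A further column was not used. The authors' signal, score and p-value were used only within a list.

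Regions on chromosome 4 starting at or beyond 28000000 were taken as the arm. Touching regions were merged for covered length, gaps and overlaps, and kept apart for number and width. The length of a chromosome was the furthest region end in any list. Comparisons were with the 24 other chromosomes and with 18 of them, leaving out 1 and 10 to 14. An overlap needed 1 bp. Sites outside the 25 chromosomes entered the totals of the lists only. Interval functions were checked on simulated regions with known answers. Python 3.11.15, NumPy 2.4.6, pandas 2.3.3, SciPy 1.17.1 and Matplotlib 3.10.9 were used.

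The members and lists were chosen with earlier results of these data known. Windows were named as the 8 most and 5 least covered at 4 hpf and the 5 with the largest fold from 3 to 4 hpf. Regions were named as the 5 widest at 2 and at 4 hpf, the 5 at 4 hpf overlapping most regions of 2.5 hpf, and the 3 longest empty stretches. Windows of like coverage, the 3-fold level and the split by name were chosen after the data were seen. With 1 pooled list per time point there was no test. The other libraries and the antibody comparison were not analysed here, and no sequence or gene is given because no genome of the lists' build was used here.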

Additional observations from a re-analysis of the deposited data

How the results depend on the processing

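Of 366 values recomputed under alternative settings, 319 stayed on the same side of 1 and within 1.5-fold, 13 moved further and 34 turned to the other side. The 366 include shares of arm windows, 6 with windows of 500 kb and 6 at a level of 15%. Those are percentages and were judged by the 1.5-fold limit alone. All values are ratios of the arm to the 24 other chromosomes unless stated, and the cause of each turn was not tested. With regions named primary, the ratio of median gaps was 1.24 at 2 hpf and 1.03 at 2.5 hpf, that of density 1.13 at 2.5 hpf, and that of median width 1.10 at 2.5 hpf and 1.06 at 3 hpf. Persistence ratios there were 0.790, 0.747 and 0.828 in the last 3 steps, and gap closure ratios 1.18, 1.01 and 0 in the steps that start at 2, 3 and 4 hpf. With a deposited p-value under 0.05, density was 1.12 and width 1.24 at 2.5 hpf, width 1.02 and gap 1.13 at 3 hpf, and gap 0.888 at 4 hpf. Persistence was 0.692, 0.581 and 0.670 in the last 3 steps, and gap closure 1.54, 0 and 0 in the steps that start at 2, 3 and 4 hpf, with no value for the step from 3.5 hpf. With the 7233 best scored regions of each list, width was 1.06 at 2.5 hpf and 1.07 at 3 hpf, gap 0.861 at 4 hpf, and persistence 0.786, 0.645 and 0.642 in the last 3 steps. Gap closure there was 0.405 and 0.992 in the steps that start at 2.5 and 3 hpf and 0 in the last 2 steps. The gap closure ratios of 0 under these 3 settings rest on 13 to 131 arm gaps, where 0.217% to 1.12% closed elsewhere, and carry little weight. The gap closure ratios of 1.18 and 1.54 in the step from 2 hpf rest on 12 and 4 arm gaps and carry little weight too. With regions of at least 1 kb, gap was 1.25 at 2 hpf and width 1.01 at 3 hpf. Gap closure there was 1.28 from 2 to 2.5 hpf, on only 10 arm gaps. The gap closure ratio from 2 to 2.5 hpf was 1.01 for the arm from 30 Mb and 1.03 after merging regions within 1 kb. Persistence from 3 to 3.5 hpf, 1.004 in the full lists, was 0.993 after that merging, 0.995 without the most covered arm window and 0.999 without the outer 1 Mb of every chromosome. Without chromosomes 1 and 10 to 14, gap closure from 4 to 4.5 hpf was 2.54. The share of arm windows covered over at least 15% at 4 hpf was 44%, against 7.47% of the other windows. The covered share ratio ranged from 1.13 to 1.47 at 3 hpf and from 2.07 to 2.56 at 4 hpf over the 10 settings. No paired analysis was possible because the lists carry no replicate values and no result comes from a test, and for the same reason no replicate could be left out. Read depth is unknown, so a region missing from a list is not shown to lack the mark.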
